A study of Mus musculus with 7 samples.

Results

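The 9 genes followed here encode receptors for the neurotrophic factors of motor neurons, measured across 7 libraries of cultured mouse spinal cells. They were the neurotrophin receptors Ngfr, Ntrk2 and Ntrk3, the GDNF family receptors Ret, Gfra1 and Gfra2, and the CNTF and LIF receptor chains Cntfr, Lifr and Il6st. The members were listed by symbol, and all 9 were found among the 23366 genes of the deposited count table. The cells carried a lentivirus that overexpresses miR-218 (OE, 3 libraries), one that knocks it down (KD, 2 libraries) or an empty one (control, 2 libraries). The third OE library is beyond the duplicates the series mentions, and it was kept. All groups shared the remaining conditions. They were primary cells of C57BL/6 embryos at embryonic day 13.5, carried viruses named pUltra in the titles, and were separated as motor neurons over a density gradient. They grew in medium with horse serum, B27 and 1 ng/ml CNTF and GDNF, and received 200 μM fluorodeoxyuridine, given to hold back glia, after 5 days in vitro. Added CNTF and GDNF were therefore present in every group, control included, and no library shows the receptors without these ligands.

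These receptors form 3 signalling systems that keep embryonic motor neurons alive. Neurotrophins bind the receptor tyrosine kinases TrkB (Ntrk2, for BDNF) and TrkC (Ntrk3, for NT-3), and all of them bind p75 (Ngfr), which has no kinase and signals survival or death depending on its partners. GDNF binds the lipid-anchored co-receptor GFRα1 (Gfra1) and neurturin binds GFRα2 (Gfra2), and both complexes signal through the kinase RET. CNTF binds CNTFRα (Cntfr), which recruits LIFR (Lifr) and gp130 (Il6st), and these activate JAK kinases and the transcription factor STAT3. LIF uses LIFR and gp130 without CNTFRα.

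The microRNA that the viruses raise or target, miR-218-5p, is shown first because its seed, bases 2 to 8, is the part that pairs with target transcripts. Its 21 bases, from RefSeq, are the same in both precursors, Mir218-1 and Mir218-2, and the seed is in capitals:
mmu-miR-218-5p: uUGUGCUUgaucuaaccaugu

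The match to this seed, AAGCACA, was searched on the transcript strand in 1 annotated 3' UTR per gene, the longest. The receptors Ret, Gfra1 and Lifr held 1 such match each, which is 3 of 9 receptors (33.3%), against 16.2% of the 11133 tested genes with an annotated 3' UTR. None of the 9 held the longer match AAGCACAA, which 4.73% of those genes held. The shorter match AGCACA, which lies inside AAGCACA, was in Ntrk2 also, so 4 of 9 receptors held it (44.4%), against 40.03% of those genes. Ret and Gfra1 held AGCACA 3 times each, Lifr 2 times and Ntrk2 1 time, with those inside AAGCACA included. In Ret the AGCACA at chr6:118103178-118103183 (mm9, minus strand) was followed by an A, a form that was not counted apart. Ngfr, Ntrk3, Gfra2, Cntfr and Il6st held none of these words. The annotated 3' UTRs differ in length, with 306 bases for Ntrk3, 1985 for Ngfr, 2787 for Gfra1, 3508 for Ret and 6320 for Lifr, against a median of 1304 bases over the tested genes. A match is a description of the letters and does not show binding. The 3 matches are printed with 8 bases on each side, with the match in capitals:
Ret, chr6:118103432-118103438 (mm9, minus strand): ttaacatgAAGCACAcatacaaa
Gfra1, chr19:58310266-58310272 (mm9, minus strand): ttgagcagAAGCACAttcattct
Lifr, chr15:7141616-7141622 (mm9, plus strand): ggagaaccAAGCACAgatcttaa

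The gene counts summed to between 2879382 and 3360686 per library in OE, 3081800 and 3329184 in KD, and 2099714 and 1591812 in control, so the controls were the shallowest. In the TMM-scaled unit used below, CPM (gene counts scaled to a common library size), 1 CPM stood for 1.56 counts in control 2 and for 3.41 counts in KD 2. Of all genes 12134 had enough counts for the test, the 9 receptors among them. The precursor gene Mir218-1 had 234 to 342 CPM in OE, 42.8 and 52.5 CPM in KD, and 52.3 and 51.9 CPM in control, high in each OE library. Counts over a precursor do not measure the mature form that a knockdown virus targets. The labels call the cells motor neurons, yet of 13 motor neuron markers only 6 could be tested. Mnx1 and Lhx4 had 0 counts, Isl2 had 1 count over all libraries and the vesicular acetylcholine transporter gene Slc18a3 had 2. The annotation and read coverage behind the counts were not given, so 0 counts, here and below, need not mean an absent transcript. The libraries are bulk RNA, in which fewer cells of a type and less RNA per cell cannot be told apart. Whether the libraries of a group are separate cultures is not stated, and p-values then reflect only library-to-library spread, which may be technical.

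A gene was called when its edgeR quasi-likelihood p, adjusted by Benjamini-Hochberg over all tested genes, was under 0.05 and its fold change was over 1.5. In OE against control 1 of 9 receptors was called, Ret, which rose, while 4.91% of all tested genes were called, 3.65% higher and 1.26% lower. In KD against control 3 of 9 were called, against 11.7% of tested genes. Ret was higher, as were 849 of the tested genes (7.0%), and Ngfr and Lifr were lower, as were 4.71%. In OE against KD 2 of 9 were called, Ngfr and Lifr, both higher in OE, against 5.30% of tested genes, 2.93% higher and 2.37% lower. The libraries of the groups did not overlap for 4 of 9 receptors in OE against control, 8 of 9 in KD against control and 5 of 9 in OE against KD, and the shares over all tested genes were 35.3%, 53.3% and 37.9%. The median log2 fold change of the 9 receptors was 0.13, -0.45 and 0.28 in these 3 comparisons, and that of all tested genes was 0.00, 0.00 and -0.01. OE and KD were both set against the same 2 control libraries.

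**Figure D1:**
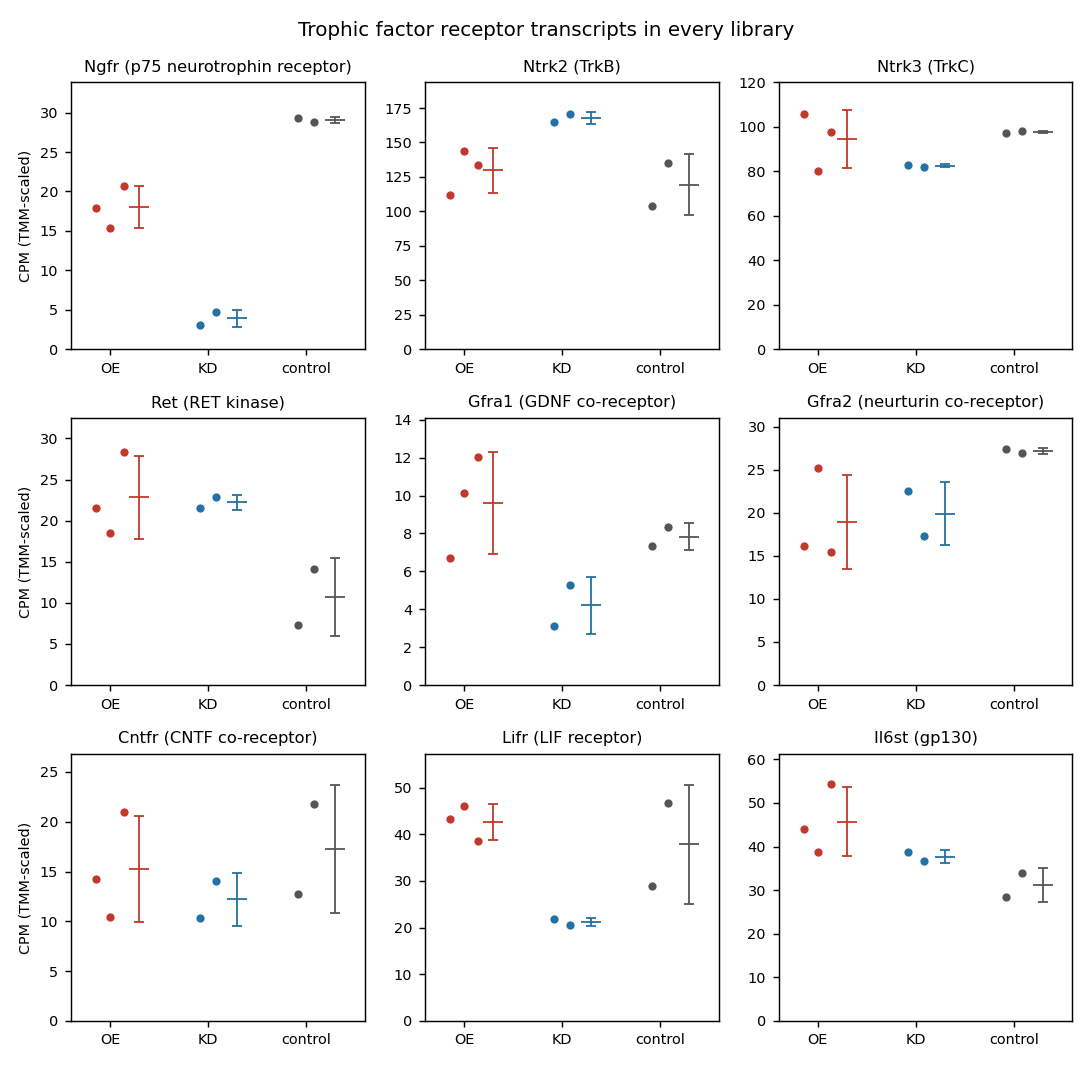
Level of each receptor transcript in TMM-scaled CPM in the 3 OE, 2 KD and 2 control libraries. Points are libraries, and the bar beside them is the group mean with its SD. Ngfr lay at 3.12 and 4.69 CPM in KD against 28.8 and 29.3 CPM in control, and Ret was higher in every OE and KD library than in either control.

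Ngfr, the p75 receptor (mm9 chr11:95430132-95449049, minus strand), had the largest fold change of the 9 in KD against control and in OE against KD. It had 59, 44 and 67 counts in OE, 10 and 16 in KD, and 60 and 45 in control. In CPM this was 17.9, 15.4 and 20.7 in OE, 3.12 and 4.69 in KD, and 29.3 and 28.8 in control. The KD libraries were far below all others, the OE libraries lay between, and no 2 groups overlapped. Ngfr fell in KD to 3.91 ± 1.11 CPM (SD, n = 2), against 29.1 ± 0.35 CPM in control (n = 2), a 7.34-fold decrease (log2 -2.88 with SE 0.38, edgeR adjusted p = 1.29e-06). It ranked 114th of 12134 genes by p in that comparison. Ngfr was also higher in OE, with 18.0 ± 2.65 CPM (n = 3), than in KD by 4.56-fold (log2 2.19 with SE 0.36, edgeR adjusted p = 6.09e-05). In OE against control its log2 fold change was -0.69 (95% interval -1.28 to -0.10), which did not pass (edgeR adjusted p = 0.17). The call in KD against control was kept in all 17 alternative settings, with log2 values of -3.21 to -2.62.

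Ngfr is known from Schwann cells and neural crest as well as from embryonic motor neurons, so Schwann and neural crest markers were read beside it. Of those 9 markers 6 were tested, and 0 were called in KD against control, beside 11.7% of all tested genes called. Their summed level was 1508 to 1720 CPM in KD and 1804 to 1904 CPM in control, most of it Gap43, which growing axons also express. The lineage factor Sox10 had too few counts to be tested. It had 3 and 2 counts in KD (mean 0.76 CPM) and 1 and 4 in the shallower controls (mean 1.53 CPM). Erbb3 and Cdh19 had 0 counts in all libraries. Pan-neuronal genes summed to 6942 to 7395 CPM in OE, 5534 to 5621 CPM in KD and 7577 to 7664 CPM in control. Of these 11 genes 3 fell in KD against control and 8 were not called, beside 4.71% of all tested genes lower. Those that fell were Nefl (log2 -1.24, edgeR adjusted p = 1.59e-06), Nefm (-1.42, edgeR adjusted p = 4.52e-10) and Mapt (-1.20, edgeR adjusted p = 2.5e-13). Mapt, the highest of the list, weighs most in the sum, with means of 907.5 CPM in KD and 2087 CPM in control. The median log2 fold change of the 11 genes was -0.26. The part of these marker genes in the level of Ngfr was not tested.

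Ntrk2, which encodes TrkB, had 367, 412 and 434 counts in OE, 528 and 583 in KD, and 212 and 211 in control. This was 112, 144 and 134 CPM in OE, 165 and 171 CPM in KD, and 104 and 135 CPM in control. Both KD libraries were above every other library, while OE and control overlapped. The difference of KD from control passed the adjusted p but not the fold threshold, at 1.42-fold (log2 0.50 with SE 0.15, edgeR adjusted p = 0.0209), so it was not called. By adjusted p alone 1, 4 and 2 of 9 receptors passed in OE against control, KD against control and OE against KD, and Ntrk2 in KD was the only one of these without a call, while 6.80%, 15.0% and 8.02% of tested genes passed. OE against KD gave -0.37 (95% interval -0.64 to -0.11, edgeR adjusted p = 0.0731), and OE against control gave 0.13 (-0.16 to 0.42). Counts per gene do not separate full-length TrkB from the truncated form that astrocytes make. Ntrk2 was thus not called in OE or in KD against control. Of 14 markers of astrocytes and radial glia 13 were tested. In OE and again in KD, 6 markers were called higher and 1 lower than in control, beside 4.91% and 11.7% of all tested genes called. Their summed level was 4659 to 4907 CPM in OE, 4166 to 4916 CPM in KD and 2954 to 3328 CPM in control. Fabp7 and Vim had the highest means, at 1944 and 1728 CPM in OE, 1661 and 1610 in KD, and 1152 and 932 in control. Slc1a2, on the same list, lay the other way, with means of 184 CPM in OE, 235 CPM in KD and 476 CPM in control. The part of these markers in the level of Ntrk2 was not tested.

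Ntrk3, which encodes TrkC, moved least of the neurotrophin receptors. It had 106, 80.0 and 97.8 CPM in OE, 83.0 and 82.1 CPM in KD, and 97.3 and 98.0 CPM in control. The KD libraries were below the controls and inside the OE range. No comparison was called, and the log2 fold changes were -0.04 in OE against control (95% interval -0.36 to 0.27), -0.24 in KD against control (-0.58 to 0.10) and 0.20 in OE against KD (-0.10 to 0.50). No interval reached past a fold of 1.5 in either direction.

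Ret, the kinase through which GDNF signals (mm9 chr6:118101766-118147762, minus strand), was higher with either miR-218 virus than with the empty virus. Its counts were 71, 53 and 92 in OE, 69 and 78 in KD, and 15 and 22 in control. In CPM it had 21.6, 18.5 and 28.4 in OE, 21.5 and 22.9 in KD, and 7.33 and 14.1 in control. OE and KD overlapped each other, and both lay above the controls, which lay further from each other than control 2 did from OE 2. Ret rose 2.19-fold in OE (22.8 ± 5.05 CPM, SD, n = 3) against control (10.7 ± 4.78 CPM, n = 2; log2 1.13 with SE 0.34, edgeR adjusted p = 0.035). It rose 2.13-fold in KD (22.2 ± 0.948 CPM, n = 2) against control (log2 1.09 with SE 0.36, edgeR adjusted p = 0.0353). In OE against KD the difference was 0.04 (95% interval -0.52 to 0.60). Both calls rest on the 37 control counts, and they were lost in 6 of 17 alternative settings for OE and in 5 of 17 for KD. Both were lost with DESeq2 and limma-voom and without control 1 (log2 of 0.70 for OE, 0.65 for KD, with edgeR adjusted p of 0.35 and 0.348), and in OE without OE 3 (0.94, edgeR adjusted p = 0.162). In KD the call was also lost without KD 1 (1.13, edgeR adjusted p = 0.0966) and without KD 2 (1.04, edgeR adjusted p = 0.145). In the authors' deposited table Ret had log2 values of 1.07 in OE and 1.01 in KD, with DESeq2 adjusted p of 0.0507 and 0.063, on the other side of the threshold.

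Gfra1, which binds GDNF itself, was the least counted receptor. It had 22, 29 and 39 counts in OE, 10 and 18 in KD, and 15 and 13 in control. This was 6.69, 10.1 and 12.0 CPM in OE, 3.12 and 5.28 CPM in KD, and 7.33 and 8.33 CPM in control. The KD libraries lay below all others, and the controls lay inside the OE range. No comparison was called. The log2 fold change was 0.30 in OE against control (95% interval -0.64 to 1.24), -0.88 in KD against control (-1.96 to 0.21) and 1.18 in OE against KD (0.25 to 2.11, edgeR adjusted p = 0.118). At this depth a fold change over 1.5 in either direction lies inside the interval of OE against control. In the annotation the exons of Gfra1 overlap those of Gm16277 on the opposite strand, and without a stated strand setting the reads of these genes could not be told apart.

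Gfra2, the neurturin co-receptor, had 16.1, 25.2 and 15.4 CPM in OE, 22.5 and 17.3 CPM in KD, and 27.4 and 26.9 CPM in control. Both controls were above every OE and KD library, and OE and KD overlapped. The log2 fold changes of -0.53 in OE (95% interval -1.11 to 0.05) and -0.45 in KD (-1.08 to 0.18) against control did not pass (edgeR adjusted p = 0.317 and 0.375). Ret thus lay above control and Gfra2 below it in every OE and KD library, with Ret called and Gfra2 not.

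**Figure D2:**
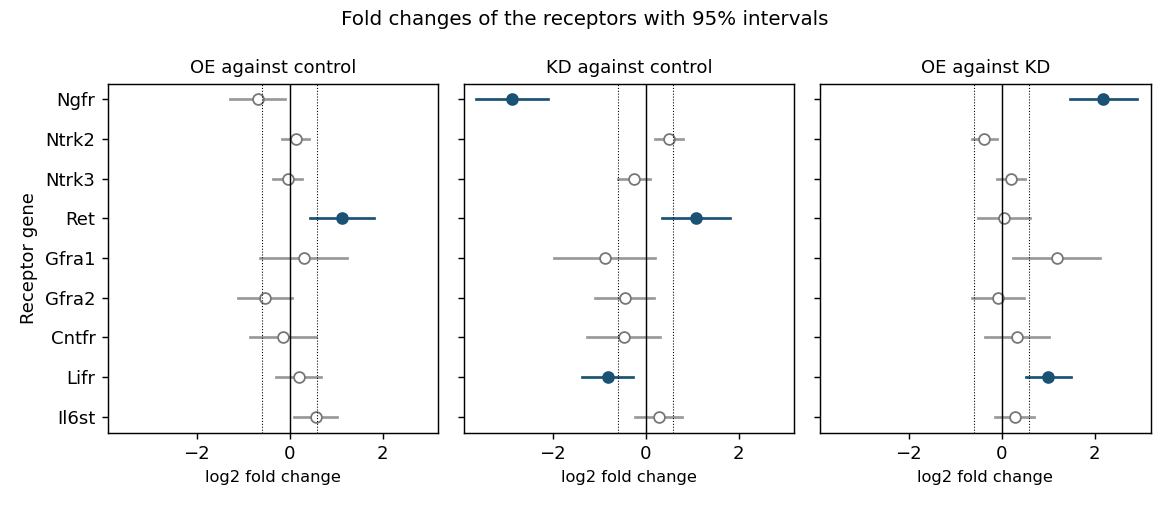
Log2 fold changes of the 9 receptors in OE against control, KD against control and OE against KD, with 95% intervals from the edgeR fit of all 7 libraries. Filled points were called, open points were not, and dotted lines mark the fold threshold of 1.5. Ngfr and Lifr were lower in KD and higher in OE than in KD, while Ret was higher in both against control.

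Lifr, which CNTF and LIF share (mm9 chr15:7079559-7147489, plus strand), separated KD from OE. It had 142, 132 and 125 counts in OE, 70 and 70 in KD, and 59 and 73 in control. In CPM this was 43.2, 46.1 and 38.6 in OE, 21.9 and 20.5 in KD, and 28.8 and 46.8 in control. The KD libraries were the lowest and the controls spanned the OE range. Lifr was higher in OE (42.6 ± 3.8 CPM, SD, n = 3) than in KD (21.2 ± 0.932 CPM, n = 2) by 2.01-fold (log2 1.01 with SE 0.23, edgeR adjusted p = 0.00408). It fell 1.76-fold in KD against control (37.8 ± 12.7 CPM, n = 2; log2 -0.81 with SE 0.27, edgeR adjusted p = 0.0349). OE against control gave 0.19 (95% interval -0.29 to 0.67). The fall in KD was lost in 7 of 17 alternative settings. These were without control 2 (-0.44, edgeR adjusted p = 0.425), without KD 1 (-0.86, edgeR adjusted p = 0.109) and without KD 2 (-0.77, edgeR adjusted p = 0.163), with library totals in place of TMM, with only the 2 groups compared, with limma-voom and with DESeq2 (-0.83, DESeq2 adjusted p = 0.0619). The call in OE against KD was lost in 1 of 17, without KD 2 (0.97, edgeR adjusted p = 0.0732). In the authors' deposited table Lifr passed both thresholds for KD over control (log2 of -0.80, DESeq2 adjusted p = 0.0395) and in OE against KD (0.99, DESeq2 adjusted p = 0.00149).

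Il6st, which encodes gp130, the chain shared by the whole cytokine family, was not called. It had 44.1, 38.8 and 54.3 CPM in OE, 38.7 and 36.7 CPM in KD, and 28.4 and 34.0 CPM in control. The controls were the lowest libraries and the OE libraries the highest, with no overlap between any 2 groups. The log2 fold changes were 0.56 in OE against control (95% interval 0.10 to 1.03, edgeR adjusted p = 0.147), 0.28 in KD against control (-0.22 to 0.79) and 0.28 in OE against KD (-0.14 to 0.70). Cntfr, the chain that makes the complex specific for CNTF, had 14.3, 10.5 and 21.0 CPM in OE, 10.3 and 14.1 CPM in KD, and 12.7 and 21.8 CPM in control. All groups of Cntfr overlapped. Its log2 fold changes were -0.15 in OE (-0.86 to 0.57) and -0.47 in KD (-1.26 to 0.32) against control, intervals that hold a fold change over 1.5 downward.

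Ratios of raw counts within a library do not depend on how libraries are scaled, and they set the chains of a complex against each other. Lifr counts per Il6st count were 0.979, 1.19 and 0.71 in OE, 0.565 and 0.56 in KD, and 1.02 and 1.38 in control, with both KD libraries below all others. Gfra1 counts per Ret count were 0.31, 0.547 and 0.424 in OE, 0.145 and 0.231 in KD, and 1.0 and 0.591 in control, so both controls were above all OE and KD libraries. Gfra2 counts per Ret count were 0.747, 1.36 and 0.544 in OE, 1.04 and 0.756 in KD, and 3.73 and 1.91 in control, again highest in control. Both ratios to Ret share the same Ret counts, only 15 and 22 in control, so they are not separate observations. Ngfr counts per Ntrk2 count were 0.161, 0.107 and 0.154 in OE, 0.0189 and 0.0274 in KD, and 0.283 and 0.213 in control. The ratios are descriptions, and they were not tested. A ratio shows unequal change within a library and not which of its genes moved, and its size depends on the length of both transcripts.

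**Figure D3:**
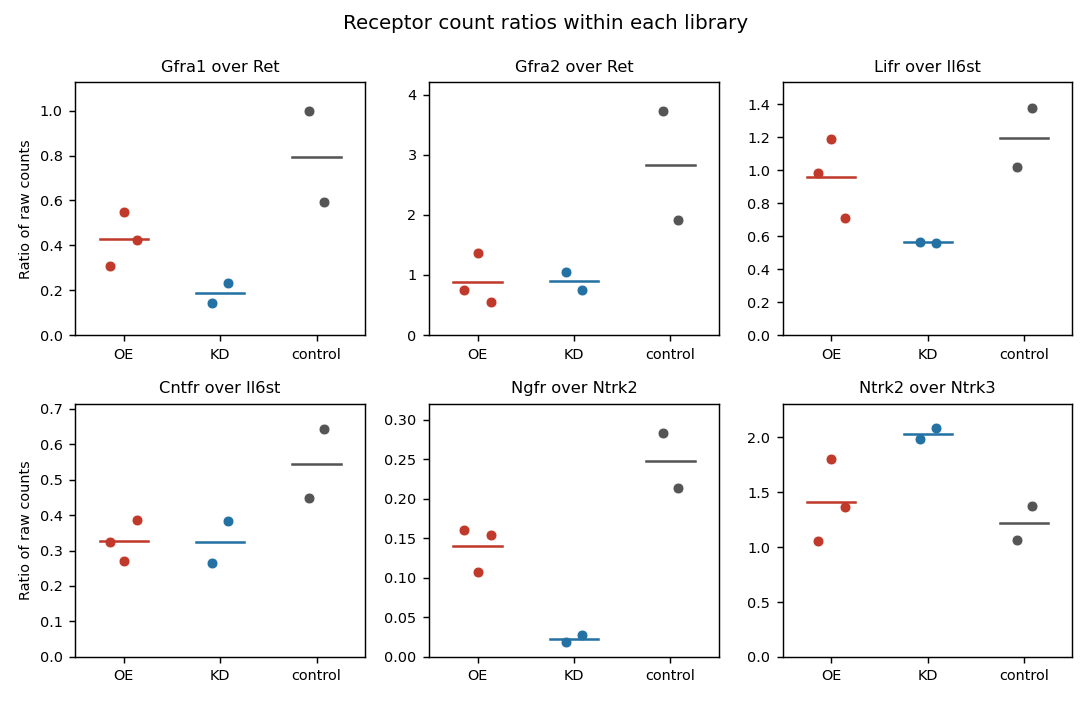
Ratio of raw counts of receptor pairs within each OE, KD and control library, with points for libraries and a line at the group mean. The ratio of Lifr to Il6st was 0.565 and 0.56 in KD, and the ratio of Gfra2 to Ret was 3.73 and 1.91 in control, above every OE and KD library.

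Most of the listed ligands had too few counts to be tested. Of 4 neurotrophins only Bdnf could be tested, with 70.9, 73.0 and 58.0 CPM in OE, 73.4 and 83.3 CPM in KD, and 82.1 and 57.02 CPM in control, and it was not called in any comparison. Ntf3 and Ntf5 had at most 4 counts in a library. Of 4 GDNF family ligands only Artn, the ligand of GFRα3, could be tested, and it was not called. Gdnf had 7, 3 and 1 counts in OE, 2 and 6 in KD, and 0 and 0 in control. Cntf and 3 of its relatives (Clcf1, Ctf2 and Osm) had 0 counts in the 7 libraries. Of the 3 tested relatives, Lif and Il11 among them, none was called. Lif had 17, 33 and 28 counts in OE, 53 and 12 in KD, and 8 and 5 in control, so the KD libraries lay on either side of the OE libraries.

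Of 10 further receptor subunits 8 were tested, and 1 was called, Osmr, the oncostatin M receptor, which pairs with gp130. It had 30.4, 33.2 and 28.7 CPM in OE, 15.6 and 20.0 CPM in KD, and 32.8 and 24.4 CPM in control. Osmr was thus lower in KD than in any other library, as Lifr was. Only OE against KD passed (log2 0.79 with SE 0.25, edgeR adjusted p = 0.0451), where 5.30% of all tested genes were called. This call of Osmr was lost in 9 of 17 alternative settings, among them those without any 1 of the OE or KD libraries.

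Some of the JAK and STAT genes below the CNTF receptor, Stat3 and Jak1 among them, fell in KD. Of 7 listed genes 6 were tested; 0 were called in OE against control, 3 fell in KD against control, and 2 were higher in OE than in KD, beside 4.71% of all tested genes lower in KD and 2.93% higher in OE than in KD. The median log2 fold change of the 6 was -0.12, -0.33 and 0.21. Stat3, the main transcription factor of CNTF signalling, had 97.6, 91.2 and 79.6 CPM in OE, 46.8 and 39.9 CPM in KD, and 96.8 and 90.3 CPM in control. It fell 2.16-fold in KD against control (log2 -1.11 with SE 0.18, edgeR adjusted p = 4.32e-05) and was 2.06-fold higher in OE than in KD (log2 1.05 with SE 0.17, edgeR adjusted p = 3.66e-05), calls that were kept in all 17 alternative settings. Jak1, a kinase bound to gp130, had 185, 161 and 161 CPM in OE, 117 and 116 CPM in KD, and 183 and 178 CPM in control, and fell 1.55-fold in KD (log2 -0.63 with SE 0.13, edgeR adjusted p = 0.000853). With library totals in place of TMM, the fall of Jak1 was -0.56, under the fold threshold. Jak2, Tyk2 and Stat5b were not called. Jak2 lay the other way from Jak1 and Stat3, with 56.6 to 68.7 CPM in KD, 46.0 to 50.7 CPM in OE and 36.5 to 46.4 CPM in control. Its log2 fold change in KD against control was 0.58 (SE 0.21, edgeR adjusted p = 0.063).

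Genes known to respond to STAT3 did not move as 1 group. Of 10 listed genes 9 were tested; 2 rose in OE, while 1 rose and 1 fell in KD, each against control, beside 4.91% and 11.7% of all tested genes called. Serpina3n, a secreted protease inhibitor, had 31.6, 22.4 and 24.7 CPM in OE, 5.93 and 8.51 CPM in KD, and 18.1 and 38.4 CPM in control. It fell 3.81-fold in KD against control (log2 -1.93 with SE 0.37, edgeR adjusted p = 0.000294; -1.31 without control 2) and was 3.61-fold higher in OE than in KD (log2 1.85 with SE 0.33, edgeR adjusted p = 0.000215). Timp1, an inhibitor of matrix proteases, rose in both (log2 of 1.32 in each, edgeR adjusted p of 0.0435 for OE, 0.0335 for KD), calls lost in 10 and 5 of 17 alternative settings. The transcription factor gene Cebpd rose in OE (log2 0.98, edgeR adjusted p = 0.00613), a call lost without control 2 (0.81, edgeR adjusted p = 0.0911). Socs3, the feedback inhibitor of gp130, was not called in any comparison, with log2 values of 0.20 in OE against control and -0.32 in KD against control.

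**Figure D4:**
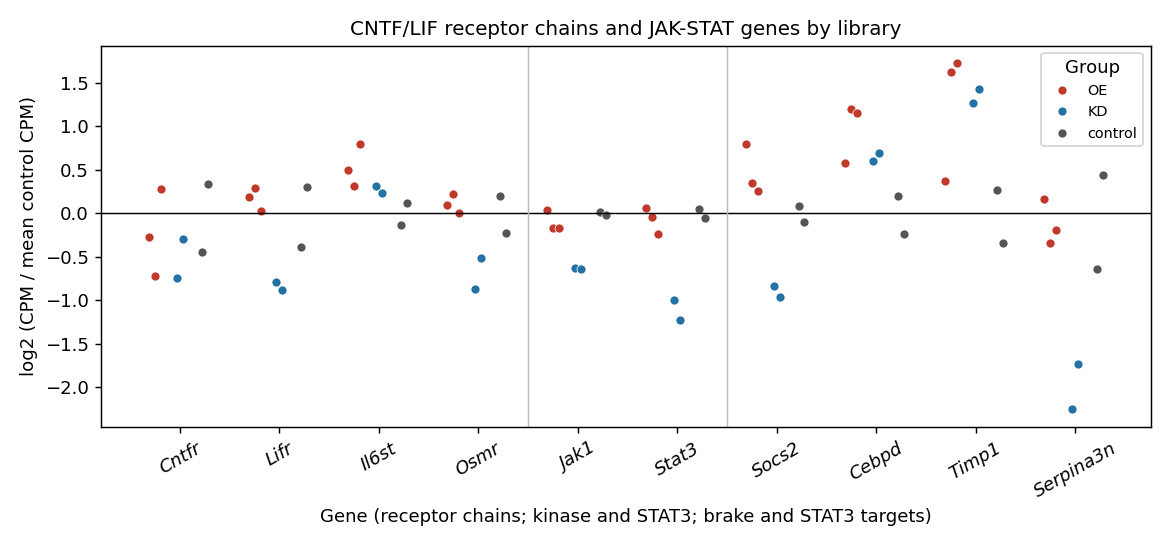
Log2 ratio of each library's CPM to the mean control CPM for the CNTF and LIF receptor chains with Osmr, for Jak1 and Stat3, and for Socs2, Cebpd, Timp1 and Serpina3n, with OE, KD and control libraries side by side. Lifr, Osmr, Jak1, Stat3, Socs2 and Serpina3n had both KD libraries below all OE and control libraries, while Cntfr, Il6st, Cebpd and Timp1 did not. The genes drawn are a choice from the lists. Jak2, which is not drawn, had both KD libraries above all OE and control libraries, and Tyk2, Stat5b and Socs3 are not drawn either.

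Of 14 partners of p75, all tested, 0 were called in OE against control and 2 in KD against control, where 4.91% and 11.7% of all tested genes were called. Nradd, a relative of p75 with a death domain, rose 4.6-fold in KD, with 20.0 and 16.4 CPM in KD and 2.93 and 5.13 CPM in control (log2 2.20 with SE 0.49, edgeR adjusted p = 0.00163). The control level of Nradd rested on 6 and 8 counts. In OE it had 8.82, 12.2 and 5.55 CPM, above both controls, and was not called (log2 1.16, edgeR adjusted p = 0.172). Nradd and Ngfr, which belong to the same receptor family, thus moved in opposite directions in KD. In OE they also lay on opposite sides of the controls, with neither called. Prdm4, a zinc finger protein that binds p75, fell in KD (log2 -0.77, edgeR adjusted p = 0.0496), and this call was lost in 12 of 17 alternative settings.

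Of 18 adaptors of Trk and RET kinases 14 were tested; 0 were called in OE against control, and 1 rose and 2 fell in KD against control, where 11.7% of all tested genes were called. Dok5, an adaptor of RET and Trk kinases, had 66.0, 72.3 and 77.5 CPM in OE, 45.6 and 56.0 CPM in KD, and 91.4 and 114 CPM in control. Dok5 fell 2.01-fold in KD (log2 -1.01 with SE 0.19, edgeR adjusted p = 0.000192). The docking protein Gab2 fell in KD (log2 -0.78 with SE 0.21, edgeR adjusted p = 0.0102), a call lost without KD 2 (-0.68) or control 1 (-0.59), and was higher in OE than in KD (0.64, edgeR adjusted p = 0.0294). The call of Gab2 in OE against KD was lost in 5 of 17 alternative settings, without OE 3 (0.53), KD 1 (0.75) or KD 2 (0.54), with library totals (0.57) and with the replicate block (0.53). Shc1, the most widely expressed Shc adaptor, rose 2.3-fold in KD, with 26.5 and 20.8 CPM in KD and 10.3 and 10.3 CPM in control (log2 1.20 with SE 0.35, edgeR adjusted p = 0.0156). This rise was lost without KD 1 (1.02, edgeR adjusted p = 0.139), control 1 (edgeR adjusted p = 0.0766) or control 2 (edgeR adjusted p = 0.0628), and with DESeq2 (1.19, DESeq2 adjusted p = 0.0534).

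Of 18 genes listed as regulators of these receptors 17 were tested. In each of the 3 comparisons 1 rose, 1 fell and 15 were not called, beside 4.91%, 11.7% and 5.30% of all tested genes called. Lrig1, which inhibits RET among other kinases, rose with either virus, as Ret did. It had 76.3, 66.0 and 73.1 CPM in OE, 76.5 and 80.7 CPM in KD, and 51.8 and 42.9 CPM in control. The log2 fold change was 0.59 in OE (SE 0.18, edgeR adjusted p = 0.0397; lost in 10 of 17 alternative settings) and 0.72 in KD (SE 0.19, edgeR adjusted p = 0.00839; lost without KD 2 or control 2). The receptor phosphatase gene Ptprf fell in OE, with 119, 127 and 126 CPM in OE, 180 and 194 CPM in KD, and 182 and 222 CPM in control (OE against control, log2 -0.70 with SE 0.12, edgeR adjusted p = 0.000223; -0.54 without control 2). Ptprf was also lower in OE than in KD (-0.59, edgeR adjusted p = 0.000689), a call lost in 6 of 17 alternative settings. Socs2, a suppressor of cytokine signalling, had 99.8, 73.4 and 68.8 CPM in OE, 32.2 and 29.6 CPM in KD, and 61.1 and 53.8 CPM in control. Socs2 fell 1.87-fold in KD against control (log2 -0.90 with SE 0.22, edgeR adjusted p = 0.00428; 0.0532 without KD 2) and was 2.61-fold higher in OE than in KD (log2 1.39 with SE 0.19, edgeR adjusted p = 4.5e-06).

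Genes induced by the ERK pathway, which Trk and RET kinases activate, had 13 tested members of 14. None was called in OE against control, and 2 rose in KD, where 849 of the 12134 tested genes rose. They were the immediate early gene Egr1 (log2 0.70 with SE 0.16, edgeR adjusted p = 0.00235) and the ERK phosphatase gene Dusp6 (0.61, SE 0.16, edgeR adjusted p = 0.0082; lost without KD 2 or control 2). Egr1 had 87.9, 91.2 and 96.6 CPM in OE, 119 and 120 CPM in KD, and 72.34 and 74.96 CPM in control. The KD libraries were thus high for Egr1 where they were low for Stat3. The median log2 fold change of the 13 tested genes was 0.17 in OE and 0.51 in KD against control. In OE against KD it was -0.38. Spry1, Spry2, Spry4, Etv4 and Etv5 were not called, with both KD libraries above both controls. Fos, Vgf and Spred1 lay the other way, with both KD libraries below both controls, and none was called. Over all tested genes 53.3% did not overlap between KD and control. All of these uncalled genes were named after their values were seen. Fos had a log2 fold change of -0.55 (edgeR adjusted p = 0.00437), under the fold threshold, and Vgf one of -0.52 (edgeR adjusted p = 0.0597).

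Of the other marker lists, those of dividing cells and of smooth muscle moved with the groups. Over all tested genes 3.65% were called higher and 1.26% lower in OE, and 7.0% higher and 4.71% lower in KD, each against control. The 8 genes of dividing cells all rose in both comparisons with control, with a summed level of 435 to 551 CPM in OE, 720 to 772 CPM in KD and 231 to 261 CPM in control. Of 6 smooth muscle and pericyte genes the 3 tested ones rose in both, and the sums were 310 to 445 CPM in OE, 740 and 796 CPM in KD, and 168 to 171 CPM in control, with Des at 0. Of 13 motor neuron markers 6 were tested and 0 were called, and their sums were 89.7 to 105 CPM in OE, 121 to 140 CPM in KD and 94.2 to 114 CPM in control. Most of each sum was Foxp1, with means of 63.2 CPM in OE, 90.9 CPM in KD and 66.4 CPM in control. Of 9 fibroblast and meningeal markers 7 were tested, and 2 rose in OE and 1 rose in KD against control, with sums of 229 to 303 CPM in OE, 267 to 301 CPM in KD and 166 to 189 CPM in control. Spinal interneuron markers summed to 682 to 816 CPM in OE, 761 to 849 CPM in KD and 845 to 894 CPM in control, and 1 of 7 tested fell in each comparison with control. Markers of sensory neurons (3 of 10 tested), microglia (1 of 8) and the oligodendrocyte lineage (6 of 8) had no call against control. The part of these cell types in the receptor levels was not tested.

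**Figure D5:**
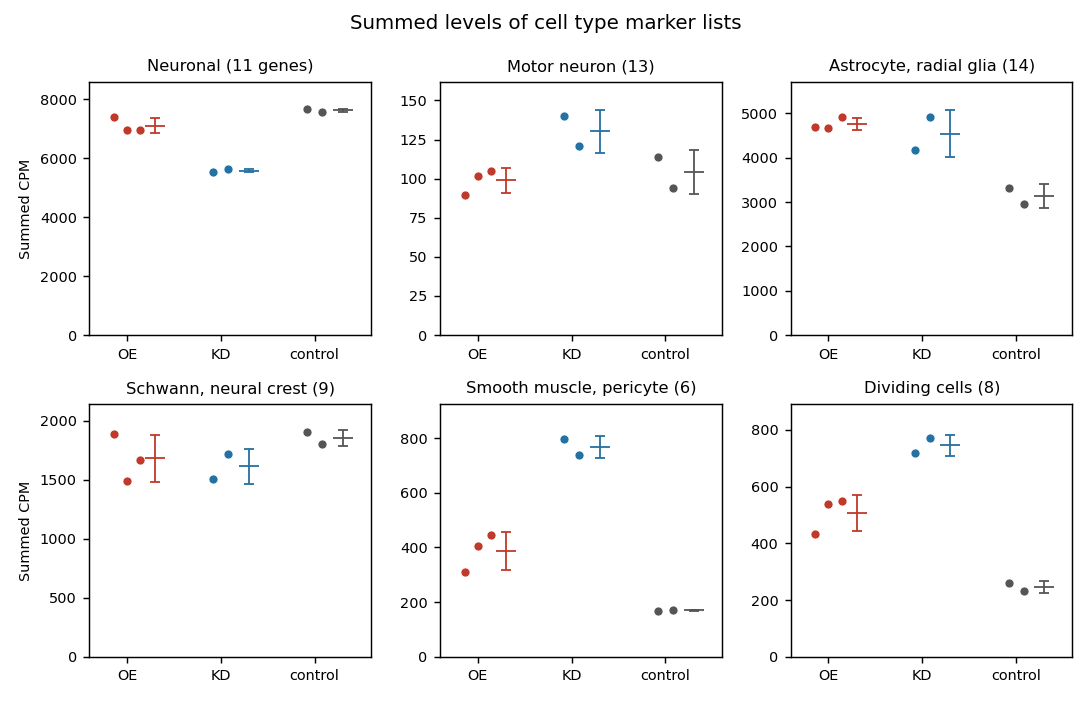
Summed CPM of 6 marker lists in the OE, KD and control libraries, with points for libraries and the group mean with its SD beside them. The list of dividing cells summed to 435 to 551 CPM in OE, 720 to 772 CPM in KD and 231 to 261 CPM in control, and the motor neuron list overlapped between OE and control.

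The genes most like the called receptors were taken by Pearson's r of log2 CPM over the 7 libraries, among 9194 other tested genes with a mean of at least 10 CPM. The 7 points share their groups and depths, so r is given as a description. Ngfr was most like Cadm4 (r = 0.996), Bcat1 (0.995) and Rbm18 (0.995). Ret was most like Cpne3 (0.995), Jup (0.986) and Zfp944 (0.975). Lifr was most like Ngfrap1 (0.981), which was on the list of p75 partners, Rnf181 (0.98) and Fem1b (0.978).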

How the data were processed

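RNA was counted per gene in 7 libraries, grouped by the sample titles. Per the labels' protocols, the authors sequenced single reads of 50 bases on 1 lane, called bases with CASAVA 1.8.2, mapped with TopHat2 2.0.10 to mouse build mm9 and deposited raw counts of uniquely mapped reads per gene from HTSeq-count 0.6.1p1. The annotation, the strand setting and whether reads cover whole transcripts were each not given in the sources used here; for that reason levels were not compared between genes. Log2 fold changes and p-values (adjusted) that the authors deposited came from DESeq2 1.4.5 per the labels' protocols and are quoted only where named.

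The 7 libraries were fitted together in edgeR 4.0.16 (R 4.3.3), which left 4 residual degrees of freedom. Libraries were scaled by TMM, genes were filtered with filterByExpr (12134 remained), and differences were tested by quasi-likelihood with robust dispersion. A call needed a Benjamini-Hochberg adjusted p under 0.05 over all tested genes and a fold over 1.5, the thresholds of the labels. Tests are two-sided. Each SE is the log2 fold change over the root of F. The fit was tested on simulated counts. Alternatives used other scalings and filters, DESeq2 1.42.0, limma-voom (limma 3.58.1), 2 groups only, a replicate block and each library left out. Mean chi-square per gene between replicates was 2.91 to 3.44, above the value for copies of 1 library.

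The annotation was GENCODE vM1 on the same build, mm9, and the microRNA sequence came from RefSeq (GRCm38.p6). The members and gene lists were chosen with earlier results of these data known. All members, every listed pathway gene that was called (except where a gene is not reported here, though it stays in its list's counts), up to 2 genes of a list without calls and the 3 genes most like each called member are named. Gene descriptions are background.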

Additional observations from a re-analysis of the deposited data

How the results depend on the processing

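Under 17 alternatives per comparison 424 of 456 receptor values kept direction and side of the threshold, 19 lost a call, 1 gained one and 12 changed sign, and none of those 12 was a called value. The count of receptors called in OE against control was 0 in place of 1 with DESeq2, limma-voom, only the 2 groups compared and the replicate block, and 0 to 1 with a library left out. In KD against control it was 1 in place of 3 with DESeq2 and with limma-voom, and 1 to 3 with a library left out. In OE against KD it was 1 in place of 2 with DESeq2, which gave no adjusted p for Ngfr, Gfra1 and Cntfr, and 1 to 2 with a library left out. Over all genes limma-voom called 223 higher in OE against control in place of 443, and DESeq2 154 lower in OE against KD in place of 287. With a library left out the counts ran from 237 to 434 higher in OE, 486 to 833 higher in KD, and 110 to 356 lower in OE against KD. Of the 9 receptors 0 held the longer seed match in place of 3 with the main one.

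The call of Ret in both comparisons with control and that of Lifr in KD were lost with DESeq2 and with limma-voom. Signs that changed were those of uncalled values. In OE against control they were Ntrk3 (0.0674) and Cntfr (0.0616) without OE 2, Ntrk2 (-0.0554) and Lifr (-0.13) without control 1, and Cntfr (0.28) without control 2. With a library left out Ntrk2 ran from -0.0554 to 0.3328, Ntrk3 from -0.1271 to 0.0674, Cntfr from -0.5014 to 0.2786 and Lifr from -0.1301 to 0.5715. In OE against KD they were Ret with library totals only (-0.0205), with the replicate block (-0.14) and without OE 3 (-0.15), and Gfra2 with the replicate block (0.0396), without OE 1 (0.03), without OE 3 (0.05) and without KD 1 (0.13), with ranges of -0.145 to 0.1757 for Ret and -0.3249 to 0.1264 for Gfra2 with a library left out. Same-numbered libraries did not deviate together (correlations of -0.05 to 0.03), so the numbers were not taken as pairs. With the replicate block, in which OE 3 adds nothing, Ret lost its call in OE against control (0.95, edgeR adjusted p = 0.137). The 37 control counts of Ret and the 28 of Gfra1 limit what these libraries can show, and intervals cover the spread between libraries.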
